A study of Mus musculus with 36 samples.

Results

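RNA of the EGFR and MET growth factor pathway was followed through liver regeneration in young and old mice. The 10 genes were chosen by name for their place in the pathway. They are the receptors Egfr, Erbb3, Met and Fgfr4, the ligands Tgfa, Areg, Hbegf, Btc and Hgf, and the EGFR inhibitor Errfi1. All 10 were found among the 21955 gene symbols listed for each library. Of these, 9 passed the filter on low counts and were tested among 13436 genes. Areg did not pass and is given by its counts only.

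The 36 libraries were made from liver RNA of C57BL/6JN mice, an inbred laboratory strain. Young mice were 4 months old and old mice were 18 months old. Livers were sampled before regeneration and at time points labelled 48, 72, 96, 120 and 240, which made 12 groups with 3 biological replicates each. The labels used here name no unit for the time points, no procedure that set off regeneration, no genetic change and no sex. RNA was depleted of ribosomal RNA and sequenced as total RNA, so unspliced transcripts contribute to the counts. Levels are given as CPM, the counts of a gene relative to the library total, after TMM scaling, which evens out differences in depth and composition. Total counts ranged from 2328233 to 6034446 a library.

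Transcripts of 4 Y-linked genes set 12 libraries apart, with exactly 1 such library in each group. Their summed level was at least 180 CPM in these 12 and at most 0.211 CPM in the other 24. These are called libraries with and without Y-linked transcripts below, since several of the genes described differed between them. All 10 genes of a hepatocyte marker list were detected, and their summed level lay between 18510 and 30840 CPM in the 36 libraries.

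EGFR is a receptor tyrosine kinase that is abundant on hepatocytes. It is activated by a family of ligands that are made as membrane-bound precursors and released by proteases. MET is the receptor for hepatocyte growth factor, which in liver is made mainly by stellate and other non-parenchymal cells and is stored as an inactive precursor. Both receptors signal through the RAS and ERK cascade and through PI3 kinase, and both are known to drive hepatocyte proliferation after loss of liver mass.

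The promoters of 3 of the genes are shown, because the results turn most on Tgfa and Egfr and because Errfi1 had the highest level per length. Each is the 250 bases before a RefSeq transcription start in GRCm38.p6, read 5′ to 3′ on the plus strand of the gene. Capitals mark letters of searched motifs on either strand. Tgfa lies at chr6:86194972-86195221, Egfr at chr11:16751953-16752202 and the second of 2 Errfi1 starts at chr4:150854820-150855069.
Tgfa: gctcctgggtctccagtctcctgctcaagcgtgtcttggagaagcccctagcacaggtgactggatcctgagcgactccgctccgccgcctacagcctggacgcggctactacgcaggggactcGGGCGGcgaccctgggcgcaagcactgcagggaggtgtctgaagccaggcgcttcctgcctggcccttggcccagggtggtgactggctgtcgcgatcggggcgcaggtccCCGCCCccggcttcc
Egfr: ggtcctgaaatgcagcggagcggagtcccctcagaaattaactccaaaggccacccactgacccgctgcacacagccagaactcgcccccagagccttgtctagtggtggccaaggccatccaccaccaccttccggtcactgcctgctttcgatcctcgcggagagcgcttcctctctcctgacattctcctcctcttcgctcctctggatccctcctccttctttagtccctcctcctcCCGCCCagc
Errfi1: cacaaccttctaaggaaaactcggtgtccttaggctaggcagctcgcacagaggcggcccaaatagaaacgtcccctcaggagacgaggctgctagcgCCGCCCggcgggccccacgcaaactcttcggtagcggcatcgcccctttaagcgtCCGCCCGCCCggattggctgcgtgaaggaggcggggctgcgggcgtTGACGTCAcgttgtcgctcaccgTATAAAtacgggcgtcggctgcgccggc

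The GC box GGGCGG occurred in all 3 windows, and in 32.7% of 32851 mouse promoter windows of the same length. Tgfa held 2 GC boxes and Egfr held 1, at position -9 relative to the transcript start. Errfi1 held 3 GC boxes, of which 2 overlapped, together with the cAMP response element TGACGTCA and the TATA box TATAAA. Those motifs occurred in 1.55% and 12.4% of all windows. AP-1 (TGANTCA), the E-box (CACGTG), the STAT motif (TTCNNNGAA) and the glucocorticoid response element did not occur in these 3 windows. The window of the first Errfi1 start, which is not shown, held 0 matches to the searched motifs. Promoter windows were found for 8 of the 10 genes, and a motif match describes letters only.

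Per length, Errfi1 was the most abundant of the genes and Areg the least. The median over 36 libraries, in CPM per kilobase of annotated exon, was 618 for Errfi1, 98.5 for Egfr, 29.4 for Met and 23.6 for Erbb3. It was 10.8 for Fgfr4, 7.35 for Tgfa, 3.32 for Hgf, 0.994 for Btc and 0.674 for Hbegf. Neighbours in this order overlapped between libraries except Errfi1, whose lowest library at 305 exceeded the highest Egfr library at 204. Annotated exon length is a union over transcripts, so the order depends on it where transcripts differ.

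Tgfa, the ligand TGF-alpha, was the only one of the 9 tested genes to pass the test in a comparison of ages or of time points with all libraries. It rose in old liver at 48 and at 96 relative to old liver before regeneration, to about double the starting level. Before regeneration, old libraries 1 to 3 had 31.0, 31.5 and 33.5 CPM and young libraries had 68.2, 41.3 and 51.3 CPM. Every old library was below every young library at that point, as it was in either direction for 14.4% of the genes tested.

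In old liver, Tgfa had 77.4, 69.7 and 55.2 CPM at 48 and 48.6, 41.0 and 72.8 CPM at 72. It had 86.3, 53.8 and 52.6 CPM at 96, then 47.7, 46.8 and 64.5 CPM at 120 and 47.9, 33.0 and 33.8 CPM at 240. All libraries from 48 to 120 lay above all old libraries before regeneration, and at 240 the ranges overlapped. Of all genes tested, 31.4%, 31.2%, 26.9% and 21.6% had old groups that did not overlap those before regeneration at 48, 72, 96 and 120. In young liver, Tgfa ranged from 32.9 to 77.6 CPM from 48 to 240 and overlapped the young level before regeneration at every time point.

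The log2 fold change of Tgfa in old liver against before was 1.07 ± 0.26 (SE) at 48, with an adjusted p of 0.00371 in edgeR's quasi-likelihood test with Benjamini-Hochberg adjustment. At 96 it was 0.995 ± 0.26, with an adjusted p of 0.0193 in the same test. Tgfa was the 1 gene called of 9 at 48, where 24.3% of all genes tested were called, and the 1 called of 9 at 96, where 6.85% were. A single gene of 9 is no more than that background share at 48. At 72 the log2 fold change was 0.76 with an adjusted p of 0.0514, and at 120 it was 0.73 with an adjusted p of 0.106, so neither passed. The call at 48 was kept in all 36 fits that left out a library and in all 11 other alternatives, with adjusted p-values from 0.000568 to 0.0416 over these edgeR and DESeq2 fits. The call at 96 was lost without the old library 1 at 96 (0.73) and also without old library 2 (0.985) or 3 (1.05) before regeneration, where the fold change was about as large. It was also lost when the libraries with Y-linked transcripts were left out, with an adjusted p of 0.0668. Over all alternatives its adjusted p at 96 ranged from 0.00512 to 0.163 in edgeR and DESeq2.

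No time point called Tgfa in young liver, where its log2 fold changes lay between -0.40 and 0.17. The test of the difference itself, the age by time interaction, gave an unadjusted p of 0.0109 and an adjusted p of 0.166. The responses of the 2 ages were therefore not shown to differ. With a term for Y-linked transcripts in the fit, the adjusted p of the interaction was 0.042, within a range of 0.042 to 0.321 over the alternatives. Before regeneration, old was lower than young by a log2 difference of -0.75 ± 0.26, with an adjusted p of 0.469.

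**Figure D1:**
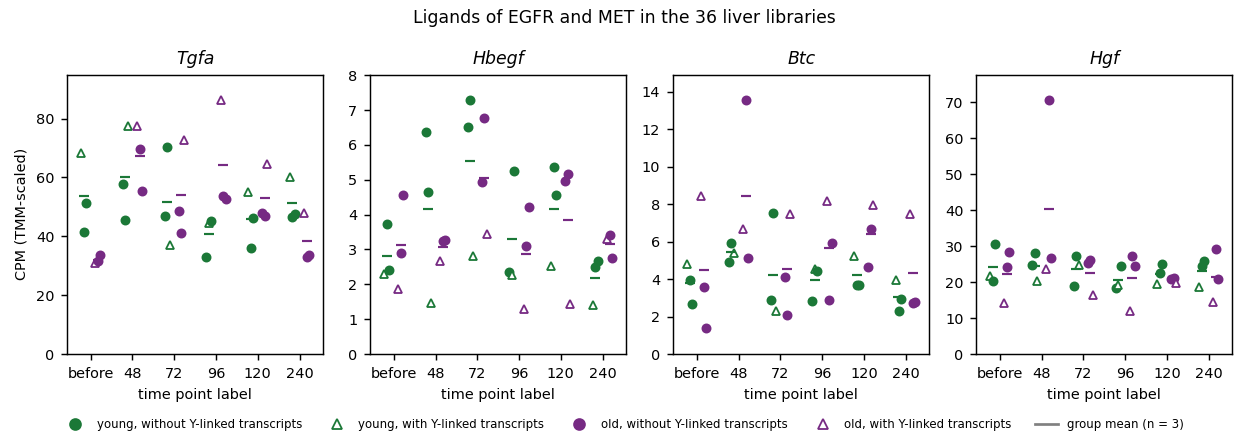
Levels of Tgfa, Hbegf, Btc and Hgf in CPM (vertical axes, linear, from 0) by time point label, with 1 point per library, young in green and old in purple, triangles for libraries with Y-linked transcripts and lines for group means (n = 3). The 3 old Tgfa libraries before regeneration sit together between 31.0 and 33.5 CPM, and 1 old Hgf library at 48 stands at 70.7 CPM.

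Egfr, the receptor, did not pass the test in any comparison of ages or of time points with all libraries, and its old level before regeneration depended on which library was included. Before regeneration, old libraries 1, 2 and 3 had 1724, 160.4 and 159.9 CPM, and young libraries had 1542, 1035 and 1302 CPM. The old library with 1724 CPM was the one with Y-linked transcripts, and it lay above all 3 young libraries. The other 2 old libraries lay below every other library of the series, of which the next lowest had 438 CPM.

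At 48, Egfr had 1698, 438 and 1284 CPM in old liver and 827, 1103 and 1592 CPM in young liver. At 72 it had 816, 1016 and 996 CPM in old and 707, 691 and 2317 CPM in young. The young library with 2317 CPM at 72 carried Y-linked transcripts and was the highest Egfr library of the series. From 96 to 120, Egfr lay between 678 and 1252 CPM in old and between 1012 and 1504 CPM in young. At 240 the 3 old libraries had 1127, 537 and 653 CPM and the young libraries 1828, 1005 and 1722 CPM. The ages overlapped at 48, 72, 96 and 240, and at 120 the old libraries, with 1252 CPM at most, all lay below the young libraries, with 1314 CPM at least. Groups did not overlap between ages at 120 for 16.4% of the genes tested.

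With all libraries, old minus young before regeneration was -0.92 ± 0.59 on the log2 scale, with an adjusted p of 0.833 in edgeR's quasi-likelihood test. Without old library 1 it was -3.02 ± 0.51, with an adjusted p of 0.00659, where 0.11% of all genes tested were called. In a fit of the 24 libraries without Y-linked transcripts, 2 in each group, it was -2.87 ± 0.41, with an adjusted p of 0.00234, and 0.327% of all genes were called. A fit of all 36 libraries with a term for Y-linked transcripts in each age, held equal over time points, put the same difference at -1.55 ± 0.54 for libraries without these transcripts, with an adjusted p of 0.395. Over all alternatives the adjusted p ranged from 0.00234 to 1, and the low values rest on 2 old libraries at that time point. Leaving out old library 1 was examined because its Egfr level differs from the other 2, and it is not independent of the value tested.

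Against before, Egfr in old liver had log2 fold changes from 0.18 to 0.74 with all libraries, and none passed the test. In the 24 libraries without Y-linked transcripts the fold changes were 2.44 at 48, 2.53 at 72, 2.43 at 96 and 2.77 at 120. Adjusted p-values there were 0.000694, 0.00158, 0.00404 and 0.000945, beside 21.3%, 9.11%, 4.26% and 7.43% of all genes called. At 240 the fold change was 1.90 with an adjusted p of 0.0877. All of these are relative to the same pair of low libraries before regeneration. In young liver without Y-linked transcripts, Egfr passed at no time point.

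Averaged over the 6 time points, Egfr was -0.51 ± 0.24 in old minus young with all libraries, with an adjusted p of 0.222. Without the libraries with Y-linked transcripts it was -0.79 ± 0.16, with an adjusted p of 0.00764, where 3.91% of genes were called. In that fit the difference was -2.87 before regeneration, where it rests on the 2 low old libraries. It was -0.17 at 48, 0.39 at 72, -0.54 at 96, -0.32 at 120 and -1.19 at 240, so the average does not describe an even difference. The fit of all libraries with the term for Y-linked transcripts in each age put the average at -0.72 ± 0.24, with an adjusted p of 0.0978. Over all alternatives that adjusted p ranged from 0.00218 to 0.407. The age by time interaction of Egfr had an adjusted p of 0.976 with all libraries and 0.0463 without those with Y-linked transcripts, where 0.802% of genes were called. Each change in the interaction is taken relative to before, so the second value depends on the same 2 low old libraries. The biological coefficient of variation of Egfr was 49.3%, higher than for 94.5% of the genes tested, and the median gene had 18.6%.

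Old library 1 before regeneration differed from the other 2 in other measures too. It had 20255 genes detected, the most of the 36 libraries, against 16040 and 15988 in the other 2. The chi-square per degree of freedom between counts was 26.9 and 31.1 for its pairs with the other 2 and 9.48 between those. This was not particular to it, since the library with Y-linked transcripts was the more distant one in most other groups. The values were 24.1 and 26.9 against 6.19 in old liver at 240, and 16.9 and 19.2 against 7.73 in young liver before regeneration. In old liver at 48 the highest value, 70.9, was between the 2 libraries without these transcripts. The summed hepatocyte markers were 27020, 20510 and 24030 CPM in old libraries 1 to 3, against 27330 to 30840 CPM in young. Summed macrophage and monocyte markers were 873, 1029 and 758 CPM, and summed stellate cell markers 468, 659 and 663 CPM. Total counts were 4393173, 4506892 and 4709507. The part of these differences and of cell composition in the Egfr values was not tested, and in bulk tissue fewer cells of a type and less RNA per cell cannot be told apart.

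**Figure D2:**
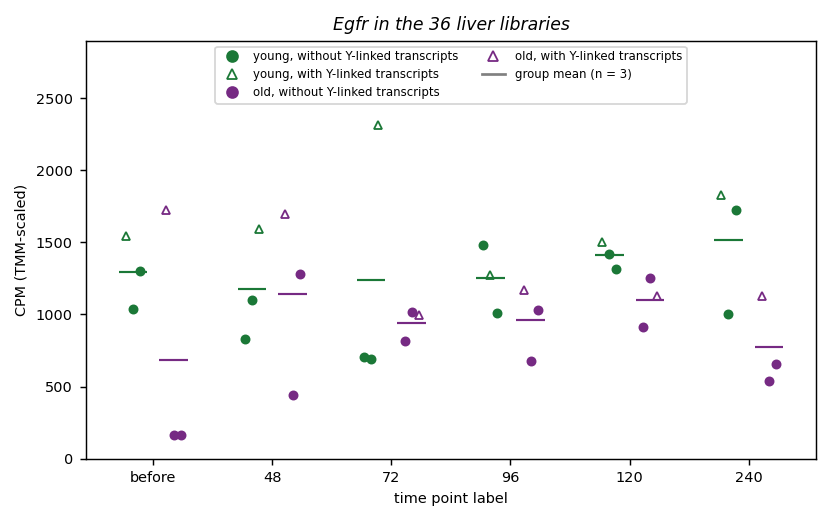
Egfr level in CPM (vertical axis, linear, from 0) by time point label, with 1 point per library, young in green and old in purple, triangles for libraries with Y-linked transcripts and lines for group means (n = 3). Before regeneration 2 old libraries sit near 160.4 CPM and the third at 1724 CPM, so the group mean lies where no library does.

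Hgf, which encodes the MET ligand, varied little in young liver. Its young group means ranged from 20.7 to 24.5 CPM over the 6 time points, with fold changes that did not pass the test. In old liver before regeneration, Hgf had 14.3, 24.1 and 28.5 CPM. At 48 it had 23.6, 70.7 and 26.8 CPM. Old library 2 at 48 was the highest Hgf library of the series, and the other 2 lay inside the range before regeneration.

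The log2 fold change of Hgf at 48 against before in old liver was 0.85 ± 0.33, with an adjusted p of 0.0543 in edgeR's test, and 0.20 without old library 2 at 48. DESeq2 put the adjusted p at 0.0428, and over all alternatives it ranged from 0.0175 to 0.673. The same library had the highest Btc level of the series, 13.6 CPM, and the lowest Met level, 134 CPM. Its summed macrophage markers were 167 CPM against 477 and 754 CPM in the other 2 libraries of the group, and its cholangiocyte markers 233 CPM against 86.1 and 87.4 CPM. Its summed stellate cell markers, 559 CPM, lay within the group's range of 515 to 702 CPM. The part of these differences in the Hgf value was not tested.

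Btc, Hbegf and Areg, the other EGFR ligands measured, were at low levels. Btc, which encodes betacellulin, had group means between 3.05 and 5.42 CPM in young liver and between 4.32 and 8.45 CPM in old liver. Averaged over time points, Btc was 0.44 ± 0.22 higher in old on the log2 scale, with an adjusted p of 0.259. Hbegf, the heparin-binding ligand, had group means between 2.196 and 5.53 CPM in young liver and between 2.87 and 5.05 CPM in old liver, and both ages had their highest mean at 72. At 72 the young libraries had 6.501, 7.29 and 2.80 CPM, against 2.29, 3.73 and 2.42 CPM before, a log2 fold change of 0.99 ± 0.49 with an adjusted p of 0.163. In the libraries without Y-linked transcripts the young fold change of Hbegf at 72 was 1.17 ± 0.37, with an adjusted p of 0.0431, beside 15% of all genes called. In these 2 young libraries at 72, summed cholangiocyte markers were 193 and 359 CPM against 59.2 and 67.1 CPM before, and summed stellate cell markers 947 and 964 CPM against 483 and 644 CPM. Summed mesothelial markers were 20.8 and 12.9 CPM against 4.73 and 3.15 CPM. The third young library at 72, with 2.80 CPM of Hbegf, also had high mesothelial markers, at 18.6 CPM. Its cholangiocyte and stellate cell markers were lower, at 57.8 and 452 CPM. With all libraries, 3 of 5 cholangiocyte, 3 of 4 mesothelial and 3 of 12 stellate cell markers tested were called higher in young liver at 72 (1 stellate cell marker was lower). Of all genes tested, 17.5% were called there in either direction. The cholangiocyte list held 9 genes, not all of which were tested. The part of these markers in the Hbegf value was not tested.

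Areg, which encodes amphiregulin, had between 0 and 7 counts in all 3 libraries of a group together. It had 0 counts in all libraries of young liver at 48, 120 and 240 and of old liver at 240. A count of 0 allows up to 3 counts, which was between 0.497 and 1.29 CPM in the 36 libraries, and such limits cover counting error only. No change in Areg was detectable at this depth.

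Met, the HGF receptor, had group means between 197 and 266 CPM in young liver and between 179 and 240 CPM in old liver. Averaged over time points, Met was -0.19 ± 0.08 in old minus young, with an adjusted p of 0.168. At 120 the young libraries had 222, 297 and 274 CPM and the old libraries 186, 173 and 207 CPM, which did not overlap, as for 16.4% of genes tested. The difference there was -0.48 ± 0.20, with an adjusted p of 0.38.

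At 48, without the libraries with Y-linked transcripts, Met had 134 and 169 CPM in old liver and 212 and 259 CPM in young liver. Old minus young was then -0.65 ± 0.19, with an adjusted p of 0.0424, beside 8.8% of all genes called. With all libraries this difference was -0.32 ± 0.20, with an adjusted p of 0.33 in edgeR's test. In the same 24 libraries Met fell in young liver at 72 (-0.74 ± 0.19, adjusted p of 0.0157 from edgeR) and in old liver at 48 (-0.66 ± 0.19, adjusted p of 0.0213 from edgeR). With all libraries those fold changes were -0.40 and -0.37, with adjusted p-values of 0.163 and 0.169. The same 2 young libraries at 72 had the high summed cholangiocyte markers (193 and 359 CPM) and stellate cell markers (947 and 964 CPM), and the third had 57.8 and 452 CPM. The old library with 134 CPM at 48 was library 2, which also stood apart in Hgf and Btc. Its summed macrophage markers were 167 CPM and its cholangiocyte markers 233 CPM. The chi-square per degree of freedom of its pairs was 61.7 and 70.9, against 24.1 between the other libraries of the group. The part of these differences in the Met values was not tested.

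Erbb3, a partner of EGFR with little kinase activity of its own, had group means between 118 and 183 CPM in young liver and between 126 and 157 CPM in old liver. The averaged difference of old minus young was -0.04 ± 0.09, with an adjusted p of 0.858.

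Fgfr4, the hepatocyte receptor for the gut hormone FGF15, had means of 31.5 CPM in young and 35.6 CPM in old liver before regeneration. At 96 the old libraries had 55.0, 44.5 and 45.0 CPM and the young libraries 24.6, 29.8 and 38.1 CPM. At 120 the old libraries had 54.4, 57.1 and 43.4 CPM and the young libraries 37.4, 35.2 and 40.0 CPM. Old and young did not overlap at either time point, as for 20.6% of genes at 96 and 16.4% at 120. The differences were 0.64 ± 0.20 and 0.46 ± 0.20, with adjusted p-values of 0.135 and 0.414. Averaged over time points the difference was 0.24 ± 0.08 with an adjusted p of 0.0786, the lowest among the 9 genes in that comparison.

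**Figure D3:**
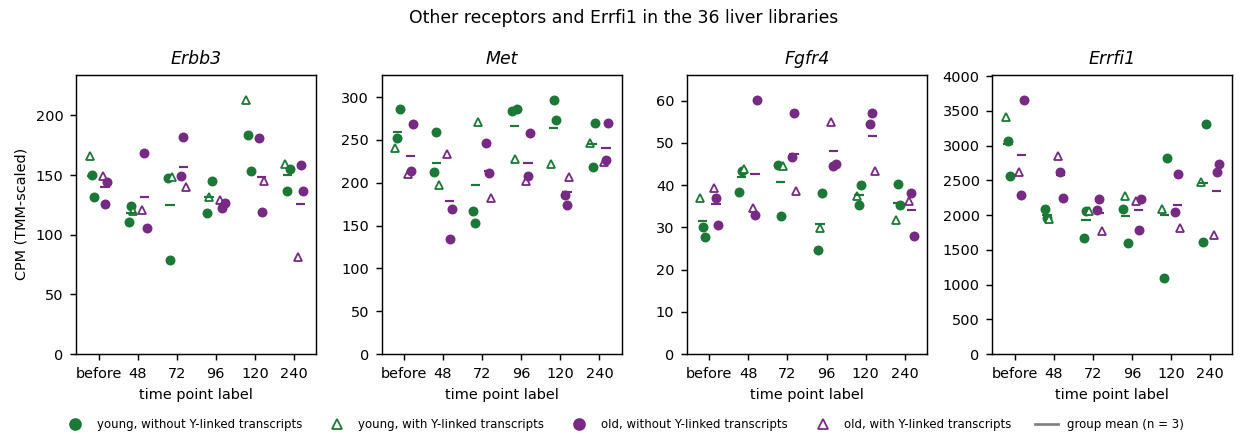
Levels of Erbb3, Met, Fgfr4 and Errfi1 in CPM (vertical axes, linear, from 0) by time point label, with 1 point per library, young in green and old in purple, triangles for libraries with Y-linked transcripts and lines for group means (n = 3). Old Fgfr4 libraries lie above young ones at 96 and 120, and young Errfi1 lies near 2000 CPM (2000 ± 82, SD) at 48 against 3020 CPM before.

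Errfi1 encodes MIG6, an inhibitor that binds the EGFR kinase domain. Young libraries had 3419, 3073 and 2568 CPM before regeneration. They had 2094, 1961 and 1946 CPM at 48, 1672, 2062 and 2054 CPM at 72, and 2094, 2275 and 1598 CPM at 96. All young libraries at these 3 time points were below all young libraries before regeneration, as in either direction for 41.4%, 36% and 26.2% of the genes tested. The log2 fold changes were -0.59 ± 0.27, -0.65 ± 0.27 and -0.60 ± 0.27, with adjusted p-values of 0.111, 0.0922 and 0.266, so none passed. In a fit of only the 2 groups compared, the value at 48 was -0.59 with an adjusted p of 0.0231, the lowest of a range up to 0.479 over the alternatives. In old liver, group means of Errfi1 ran from 2859 CPM before to 2026 CPM at 72, where the fold change was -0.50 ± 0.27 with an adjusted p of 0.227. Old libraries at 72 and 96, with 2230 CPM at most, were also all below those before, with 2295 CPM at least. Such groups did not overlap for 31.2% and 26.9% of the genes tested, and at 48 the old ranges overlapped. The age by time interaction had an adjusted p of 0.979 in edgeR's test, so the ages were not shown to differ.

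Comparing ages, edgeR called 0 of the 9 genes at every time point and on average. Among all genes tested it called 0.0595% before regeneration, 11.4% at 48, 0% at 72, 0.402% at 96, 0.0819% at 120, 0.0149% at 240 and 6.13% on average. At an unadjusted p under 0.05 the members numbered 1, 1, 0, 2, 2, 0 and 3 in that order, and DESeq2 called 0 in each. The share of all genes at an unadjusted p under 0.05 is not given. The shares here are for adjusted p, so counts at the unadjusted threshold, here and below, cannot be read against them. Against before in young liver, edgeR and DESeq2 called 0 of 9 at all 5 later time points. There, 22.1%, 17.5%, 1.44%, 0.595% and 0.26% of all genes were called from 48 to 240, and 1, 1, 1, 1 and 0 of the members had an unadjusted p under 0.05. In old liver edgeR called 0 of 9 at 72, 120 and 240, beside 12.6%, 4.05% and 0.141% of all genes, with 2, 2 and 0 at an unadjusted p under 0.05 and 1, 0 and 0 by DESeq2. The interaction called 0 of 9 members and 2.91% of all genes, with 1 member at an unadjusted p under 0.05 and 0 by DESeq2. The median log2 fold change of the 9 genes at 48 against before was 0.02 in young and 0.26 in old liver, beside -0.01 and 0.01 over all genes tested.

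In simulated counts with the means and depths of these libraries, the test at 48 between ages recovered 47% of genes changed 2-fold and 86% of genes changed 4-fold. The averaged comparison recovered 93% and 99%. The age by time interaction recovered only 20% and 66%, with the change placed in old liver before regeneration. Genes with the lowest mean levels were not among those changed. The changed genes were drawn at random, so these shares do not give the recovery of genes with a wide spread. The biological coefficient of variation was 49.3% for Egfr, 40.1% for Btc, 33.9% for Hbegf and 27% for Hgf. The median gene had 18.6%, and only Met and Fgfr4 lay below it. No difference tied to Y-linked transcripts was simulated.

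**Figure D4:**
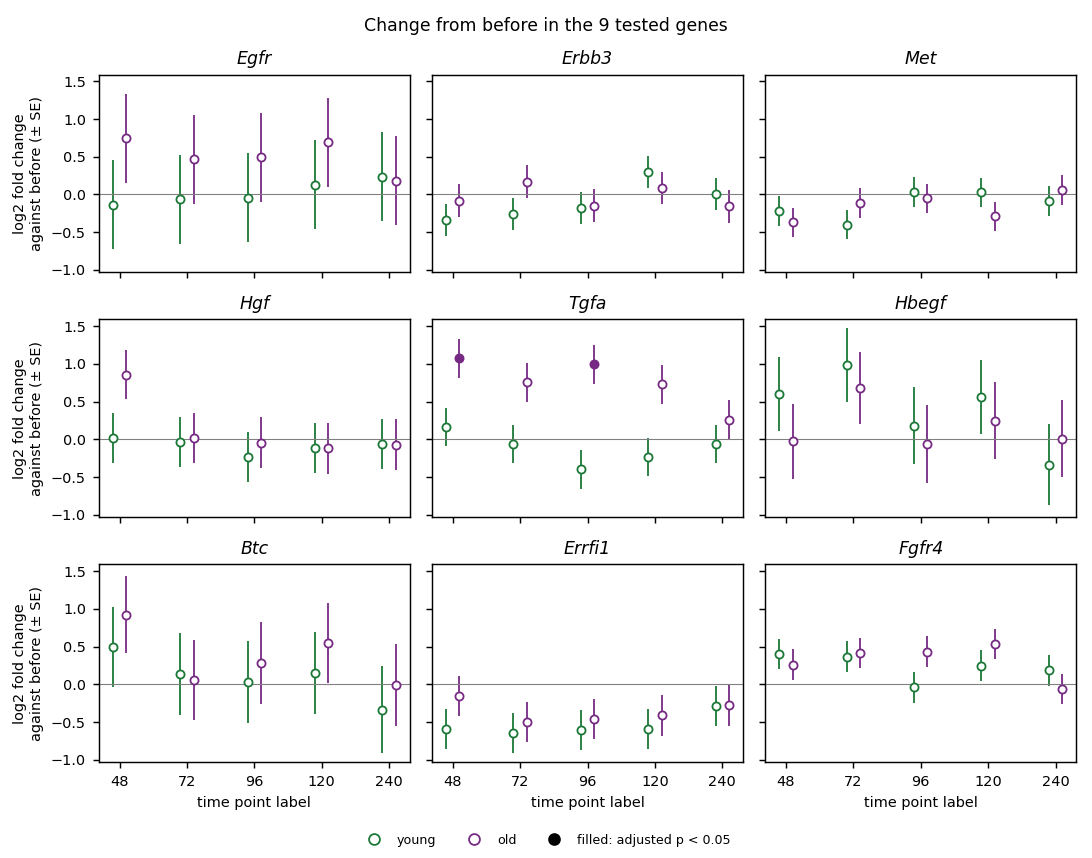
Log2 fold change against before (vertical axes, with bars of ± 1 SE) at the later time points for the 9 tested genes, young in green and old in purple, filled where the adjusted p was under 0.05. The 2 filled points are Tgfa in old liver at 48 (1.07) and at 96 (0.995).

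Levels of several of the genes differed between libraries with and without Y-linked transcripts. This comparison was chosen after the values had been seen, and the labels used here give no sex. In old liver, Hgf had a lowest, median and highest level of 12.02, 15.5 and 23.6 CPM in the 6 libraries with Y-linked transcripts and 20.8, 25.7 and 70.7 CPM in the 12 without. The log2 difference, with minus without, averaged over time points, was -0.74 ± 0.16 with an adjusted p of 0.00329 in edgeR's quasi-likelihood test, and it passed in all 36 fits that left out a library. In young liver the Hgf medians were 19.97 and 24.7 CPM, and the difference was -0.23 ± 0.15 with an adjusted p of 0.667.

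Hbegf was lower with Y-linked transcripts at both ages. In young liver its lowest, median and highest levels were 1.41, 2.28 and 2.80 CPM with and 2.35, 4.61 and 7.29 CPM without, a log2 difference of -1.01 ± 0.23 with an adjusted p of 0.0118. In old liver they were 1.29, 2.27 and 3.45 CPM with and 2.76, 3.81 and 6.79 CPM without, a difference of -0.77 ± 0.23 with an adjusted p of 0.0363. The young call was lost without library 3 at 48 (-0.85) or library 3 at 72 (-0.94), and the old call was lost in 9 of 36 such fits.

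Egfr was higher with Y-linked transcripts in old liver. Its lowest, median and highest levels were 996, 1149 and 1724 CPM with and 159.9, 747 and 1284 CPM without, a log2 difference of 1.07 ± 0.30 with an adjusted p of 0.03. Without old library 1 before regeneration the difference was 0.52 and did not pass. The call was lost in 5 of 36 fits that left out a library, the others being old libraries 2 (0.85) and 3 (0.86) before regeneration, old library 1 at 48 (1.09) and old library 1 at 240 (1.1). In young liver the Egfr medians were 1567 and 1069 CPM and the difference was 0.60 ± 0.29, with an adjusted p of 0.436.

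Tgfa and Btc were also higher with Y-linked transcripts in old liver. The Tgfa median was 68.6 CPM with and 47.3 CPM without, a log2 difference of 0.45 ± 0.12 with an adjusted p of 0.0268, lost in 4 of 36 fits that left out a library. The Btc median was 7.73 CPM with and 3.84 CPM without, a difference of 0.88 ± 0.27 with an adjusted p of 0.0496, lost in 30 of 36 such fits. In all, 1 of 9 genes was called in young liver, where 1.72% of all genes were, and 5 of 9 in old liver, where 7.03% were. The test of a different split between ages called 0 of 9 genes and 0.35% of all genes, with 1 member at an unadjusted p under 0.05 (Hgf, 0.0256). The split was therefore not shown to differ between young and old.

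**Figure D5:**
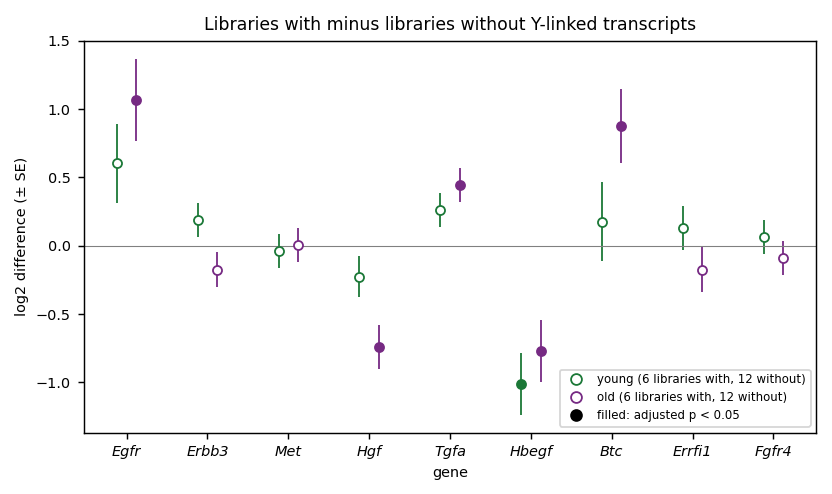
Log2 difference between libraries with and without Y-linked transcripts (vertical axis, with bars of ± 1 SE) for the 9 tested genes, young in green and old in purple, filled where the adjusted p was under 0.05. Hbegf lies below 0 at both ages, Hgf is lowest among old values after Hbegf, and old Egfr is highest at 1.07.

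Among ErbB genes outside the 10, edgeR called 1 of 6 tested genes at 48 against before in young liver and 2 of 6 in old liver. Among all genes, 22.1% were called in young and 24.3% in old liver in these comparisons. Erbb4, another receptor of the family, fell at both ages. It had 5.41, 7.46 and 7.26 CPM before and 2.94, 3.36 and 0.739 CPM at 48 in young liver, a log2 fold change of -1.48 with an adjusted p of 0.0265. In old liver it had 5.17, 6.26 and 5.70 CPM before and 1.56, 0 and 1.64 CPM at 48, with an adjusted p of 0.00212. Nrg1, which encodes neuregulin and signals through ERBB3 and ERBB4, rose in old liver from 0.939, 1.34 and 0.913 CPM to 4.22, 5.67 and 3.48 CPM, with an adjusted p of 0.0327 in edgeR's test.

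Genes for the activation and shedding of ligands were called in 2 of 12 cases in young and 5 of 12 in old liver at 48 against before, beside 22.1% and 24.3% of all genes. Hgfac, which encodes a protease that activates HGF, fell at both ages, by 1.08 in young and by 1.24 in old liver on the log2 scale, with adjusted p-values of 0.0185 and 0.00751 in edgeR's test. Its old libraries at 48 had 70.0, 55.1 and 165 CPM, against 279, 217 and 188 CPM before. Plat, which encodes tissue plasminogen activator, was called in old liver with 1.78, 24.1 and 1.02 CPM at 48, so the high value was that of library 2 alone. Rhbdf1, a regulator of the sheddase ADAM17, rose in young liver by a log2 fold change of 1.30, from 8.11, 6.47 and 2.42 CPM to 14.9, 13.7 and 13.8 CPM.

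Among adaptors and kinases below the receptors, 9 of 23 genes were called in young liver (4 higher, 5 lower) and 11 of 23 in old liver (6 higher, 5 lower) at 48, beside 22.1% and 24.3% of all genes. Sos1, which loads RAS with GTP, fell at both ages, by 0.62 in young and by 0.55 in old liver on the log2 scale. Averaged over time points, old liver had more Stat3 RNA (0.31 ± 0.09, adjusted p of 0.0423 in edgeR) and less Plcg1 RNA (-0.24 ± 0.06, adjusted p of 0.00945 in edgeR).

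Of 21 feedback inhibitors and ERK target genes tested, 4 were called in young liver (1 higher, 3 lower) and 3 in old liver (all lower) at 48, below the 22.1% and 24.3% of all genes called. Dusp6, a phosphatase that acts on ERK and is itself an ERK target gene, fell at both ages. It had 196, 348 and 365 CPM before and 97.9, 104 and 99.8 CPM at 48 in young liver. In old liver it had 260, 322 and 393 CPM before and 247, 100.5 and 127 CPM at 48. The log2 fold changes were -1.59 and -1.04, with adjusted p-values of 0.00256 and 0.0398 from edgeR. Spry4, another inhibitor of the cascade, fell in young liver from 23.7, 91.0 and 80.4 CPM to 20.8, 13.5 and 14.0 CPM. Averaged over time points, Dusp6 was higher in old liver by 0.62 ± 0.15, with an adjusted p of 0.0117.

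Of 7 FGF genes tested, 1 was called in young and 2 in old liver at 48, beside 22.1% and 24.3% of all genes. Fgf21, a hormone made by hepatocytes under stress, rose in old liver from 2.11, 2.46 and 1.60 CPM to 163, 21.9 and 40.3 CPM, with an adjusted p of 0.001 from edgeR. It had 4.09, 2.07 and 0.986 CPM in young liver at 48, and the difference between ages there was 4.88 ± 1.03 on the log2 scale, with an adjusted p of 0.0022. Every old Fgf21 library at 48 was above every young one.

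Immediate early and clock genes changed over the same interval. At 48 against before, 10 of 15 immediate early genes were called in young liver (9 lower) and 7 of 15 in old liver (4 lower), beside 22.1% and 24.3% of all genes. Of 14 clock genes, 12 were called at each age, with 10 lower in young and 9 lower in old. The time of day at collection is not given in the labels, and its part in the values of the 10 genes was not tested.

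By the Pearson correlation of 12 group means on the log2(CPM + 1) scale, the genes most like Egfr were Vamp8 (0.875), C8b (0.872) and Wdr7 (0.869). Those most like Tgfa were Psmb6 (0.923), Mbl1 (0.914) and S1pr3 (0.909). Those most like Met were Tex264 (0.962), Sult2a8 (0.957) and Trap1 (0.956), and the gene most like Hgf was Rnf24 (0.964). Erbb3 was most like Atxn7l1 (0.876), Btc like Pid1 (0.914), Hbegf like Dnal1 (0.937), Errfi1 like Ccnl1 (0.938) and Fgfr4 like Aldh16a1 (0.922). The 12 means share libraries and depth between genes, and these values are a description.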

How the data were processed

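Per the labels' protocols, total RNA from frozen liver was treated with DNase, spiked with ERCC RNA (mix 1 for young, mix 2 for old) and depleted of ribosomal RNA. The submitters' processing notes name STAR 2.7.5b, featureCounts, Trimmomatic 0.39, SAMtools 1.10 and Picard 2.20.8, and GRCm38 and mm10, without roles. The annotation, strand setting and gene filter are not given in the sources used here. The deposited tables, 1 per library, hold raw whole-number counts by gene symbol, with 0 ERCC rows, so RNA per cell was not measured. Genes that overlap or have antisense partners are uncertain, since the use of strand is not given.

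The count test was that of edgeR 4.0.16 (R 4.3.3). TMM factors ranged from 0.930 to 1.133, filterByExpr on the 12 groups left 13436 genes, and all 36 libraries entered a quasi-likelihood fit with 1 mean per group. Benjamini-Hochberg adjustment ran over all genes tested within a comparison, and calls were made below an adjusted p of 0.05. DESeq2 1.42.0 was an alternative. The test was checked on simulated counts with 200 changed genes. Replicate libraries were numbered as in the labels, no pair of libraries within a group (36 pairs compared) looked like a repeat of the same library, and the spread between biological replicates is the error in every p-value.

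The plain quasi-likelihood fit was run first. A fit with robust estimation was then tried and for a time used in its place, with the gene counts of both seen. The plain fit is reported, since it is the fit as designed, and the robust fit is an alternative. The 10 genes, the other gene lists, the motifs, the promoters shown and the single values followed through the alternatives were chosen with earlier results of these data known. The comparison of libraries with and without Y-linked transcripts (at least 10 CPM over 4 genes) was added after the data had been seen. The alternatives were other scalings and filters, DESeq2, a fit of only the groups compared, replicate blocks, a term for Y-linked transcripts, leaving those libraries out, and leaving out each library in turn. All 10 genes were named. From each other list, at most 3 called genes per comparison with the smallest adjusted p could be named, for old and young at 48 against before, old against young at 48 and on average, and the interaction. Genes of like pattern were the 3 with the highest correlation of group means and a mean of at least 1 CPM, leaving out predicted genes and pseudogenes.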

Additional observations from a re-analysis of the deposited data

How the results depend on the processing

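No single-gene value followed through the alternatives changed sign. Nearly all of them had an unadjusted p under 0.05 in edgeR's test with all libraries, which made a change of sign unlikely. Some values not followed did change sign when the libraries with Y-linked transcripts were left out. Old minus young at 72 went from -0.39 to 0.39 for Egfr and from 0.07 to -0.39 for Tgfa. Before regeneration it went from 0.215 to -0.42 for Btc. None of these differences passed the test in either fit. In old liver at 48 against before, the count of called genes was 1 and became 2 with total-count scaling, a stricter filter, DESeq2 or a term for Y-linked transcripts, with Hgf added each time. In old liver at 72 it was 0 and became 1 (Tgfa) with total-count scaling, no filter, a stricter filter, DESeq2, a term for Y-linked transcripts or robust estimation (adjusted p of 0.0491 with edgeR's robust fit, against 0.0514). The term for Y-linked transcripts also gave 1 call (Tgfa) in old liver at 120 and 1 (Tgfa) in the interaction. A fit of only the groups compared gave 1 call (Errfi1) in young liver at 48. Without the libraries with Y-linked transcripts, the counts were 1 (Egfr) for old against young before regeneration, 1 (Met) at 48, 1 (Egfr) on average, 2 (Hbegf and Met) in young liver at 72, 4 (Btc, Egfr, Met and Tgfa) in old liver at 48, 1 (Egfr) at 72, 1 (Egfr) at 120 and 1 (Egfr) in the interaction. In the split by Y-linked transcripts in old liver, the count was 5, and it was 4 with total-count scaling and 4 with no filter. The cause of these changes was not tested beyond what each setting removes or adds.

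Leaving out 1 library at a time moved the count between 0 and 1 for old against young before regeneration, at 48 and on average, for young at 72, for old at 72, 120 and 240, and for the interaction. It moved the count between 1 and 3 for old at 48, between 0 and 2 for old at 96, between 0 and 1 for the young split and between 2 and 5 for the old split by Y-linked transcripts. Calls of Egfr appeared without old library 1 before regeneration, calls of Fgfr4 on average without old library 2 at 48 or young library 3 at 96, and the call of Hgf between ages at 48 without old library 1 at 48.

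Same-numbered libraries of an age deviated together little on average. Their mean correlation lay between -0.00616 and 0.152, with single pairs from -0.378 to 0.578. Of 36 libraries, 15 correlated best with their own number, which was not tested against an expected share. The labels do not state that the numbers pair animals, so they were not taken as pairs. With a replicate block nested in age, old liver at 48 had 2 calls (Hgf and Tgfa). With a replicate block shared by both ages, it had 2 calls and old liver at 72 had 1 (Tgfa, adjusted p of 0.0487 from edgeR), and the block moved no other count. Depth limits Areg, Btc and Hbegf most, since a library held few of their counts.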
